A study of Gallus gallus with 14 samples.

Results

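E14 is the intermediate stage of a time course of the retinal pigment epithelium (RPE) of the chicken embryo, and E7 is its youngest stage. The comparison was made by taking the 3 arrays labelled E14 and the 4 labelled E7, 7 of the 14 arrays of the series, which also hold 3 arrays at embryonic day 10 and 4 at embryonic day 18. Every array carried total RNA of untreated RPE sheets. The design text gives 20 to 30 eyes for each separately made pool, so an array is a pool and not an embryo. Strain and sex of the embryos are not given in the sources used here. RNA was labelled with biotin by in vitro transcription from the 3' end and read on Affymetrix arrays of the chicken genome, which give a single signal for each probe set, a group of short probes for a transcript. Levels below are log2(signal + 16) after quantile normalization, and differences are E14 minus E7 on that scale, each ± its standard error (SE) from limma.

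The RPE is a pigmented sheet between the neural retina and the choroidal blood supply. It absorbs stray light, closes the outer blood-retinal barrier with tight junctions, carries nutrients to the photoreceptors, engulfs the tips of their outer segments and returns the visual chromophore to them through the visual cycle. In the embryo the sheet first divides and takes on pigment, and it acquires the barrier and the photoreceptor-serving functions while the outer segments form. The comparison asks what the sheet has gained or lost midway through that maturation.

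At E14 the shares of genes that rose were above the share over all genes in, among others, the lists of the visual cycle, retinoid carriers, phagocytosis and lysosome, sterol and fatty acid metabolism, and antioxidant genes. The shares that fell were above it for mitosis and DNA replication, among others. The steepest rises were those of the tight junction protein CLDN1 and the carrier TTR, at 69.5-fold and 48.0-fold. GALNT7, an enzyme that adds sugars to mucin-type proteins, fell most, by 4.89 ± 0.23 on the log2 scale (SE), which is 29.7-fold lower at E14. A call means a Benjamini-Hochberg adjusted p under 0.05 over all 38439 non-control probe sets, by limma with all 14 arrays in the fit. Of these, 4825 (12.6%) were called, 2558 higher and 2267 lower at E14. A change of at least 2-fold was seen in 1022 of the higher and 723 of the lower probe sets, and of at least 4-fold in 212 and 95. With a gene represented by its brightest probe set, 1453 of 13009 genes (11.2%) rose and 1162 (8.93%) fell. These shares are the background for each gene list. The split of directions moved with the scaling: 53% of called probe sets were higher at E14 after quantile normalization, 44.5% on the deposited scale and 79.2% after median centring, where the median change of all probe sets was -0.0158, -0.158 and 0.115. Genes named below only as further list members were not followed through the alternatives.

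**Figure D1:**
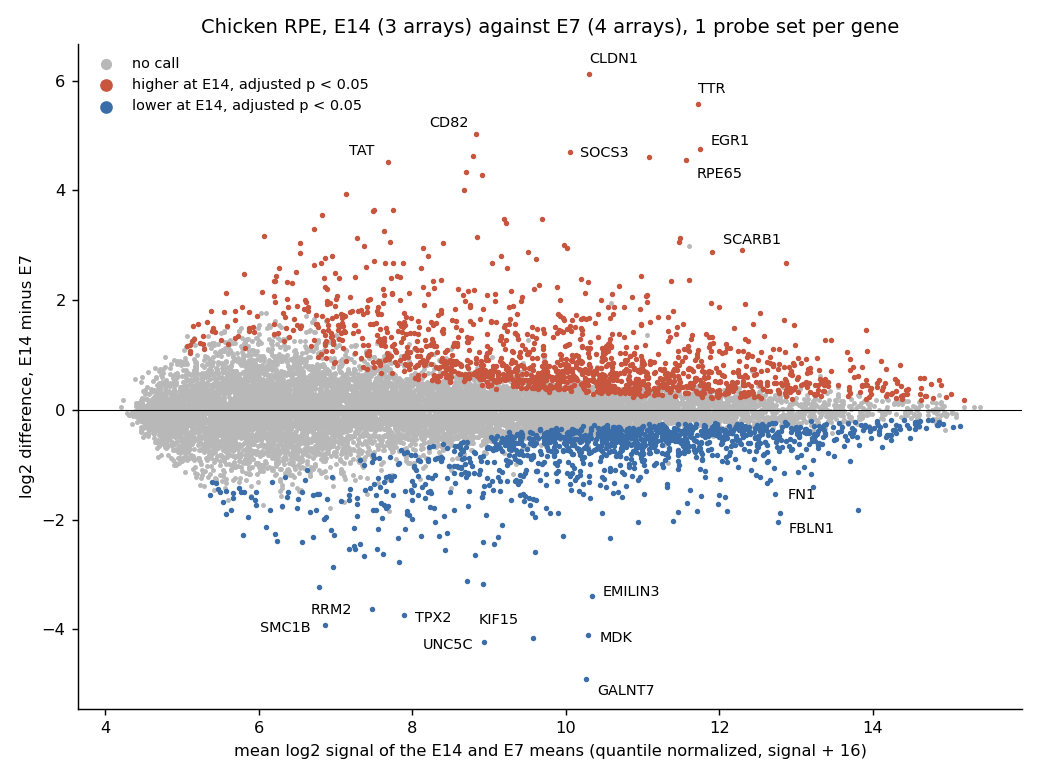
The log2 difference of E14 minus E7 (vertical axis) is plotted against the mean log2 signal of both ages (horizontal axis) for 13009 genes, with 1453 called higher at E14 in red, 1162 called lower in blue and the rest in grey. CLDN1 at 6.12 and TTR at 5.58 lie highest, and GALNT7 at -4.89 lies lowest.

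The arrays of both ages separated on the first principal component of the 7 arrays, which held 34.1% of the variance. The E14 arrays lay between 61.67 and 70.01 and the E7 arrays between -66.63 and -30.89. E7 replicates 1 and 2 stood apart from replicates 3 and 4 on the second component (18.7%), at 44.67 and 42.51 against -19.75 and -89.98. Median deposited signals were 83.5 to 102 at E14 and 96.9 to 145 at E7. The ratio of 3' to 5' actin signal, a measure of RNA integrity, was 1.46 to 1.73 at E14 and 1.25 to 1.5 at E7. All 3 E14 arrays but only E7 replicate 4 came with an instrument file. No label says that the arrays with such a file form a batch, and any batch they share is largely tied to age here. The files name station 1 for E7 replicate 4 and stations 2, 2 and 3 for E14 replicates 1, 2 and 3. The 158 named genes called all kept their direction with E7 replicate 4 as the only E7 array. They had been chosen with that array and the same E14 arrays in the fit, partly by groups that did not overlap. Their direction was thus largely set in advance, and the part of a batch was not tested. For that single array the spread of the remaining arrays was taken.

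The genes of the visual cycle were higher at E14, led by the isomerase that regenerates 11-cis retinol. RPE65, which encodes it, had log2 signals of 13.81, 13.87 and 13.86 at E14, against 9.70, 8.79, 9.25 and 9.44 at E7. The gap between the groups was many times the spread within them, and RPE65 rose by 4.55 ± 0.14 (23.4-fold, limma adjusted p = 1.37e-12). Of 11 measured visual cycle genes 8 rose (72.7%) and 1 fell, with a median change of 0.50 against 0.00905 over all genes. RRH, the opsin peropsin of RPE microvilli, read 12.60, 12.49 and 12.47 at E14 and 11.29, 11.11, 10.92 and 11.23 at E7, a rise of 1.38 ± 0.17. The retinol dehydrogenase RDH11 rose by 0.50 ± 0.083. RLBP1, the retinaldehyde-binding protein, was already among the brightest genes at E7 and gained 0.29 ± 0.063. It lost its call on the deposited scale (0.20), after median centring (0.47) and without the variance trend.

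LRAT, which makes the retinyl esters that RPE65 uses, was still low at E14, with 6.86, 6.74 and 7.28 against 5.54, 5.89, 4.89 and 5.89 at E7. Its groups did not overlap and it was called at adjusted p = 0.0413 (1.40 ± 0.43, limma). The LRAT call ended without E14 replicate 1 (1.46), 2 (1.52) or 3 (1.25), without E7 replicate 1 (1.40), 2 (1.51) or 3 (1.18), and in 7 further alternatives. DHRS3, a reductase that turns retinal back to retinol, fell by 0.45 ± 0.088. It was not called on the deposited scale (-0.30) or after median centring (-0.02). The number of visual cycle genes that rose was 5 without E14 replicate 1 or 3, 5 among arrays with an instrument file, 5 after median centring, 5 at an adjusted p under 0.01, 4 on the deposited scale, 4 against E7 replicates 3 and 4 alone and 3 without the variance trend. RPE65 and RRH were called under each of these.

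Among genes of retinoid carriage, uptake and conversion, 7 of 17 measured (41.2%) rose and 2 fell. Without E14 replicate 3 or after median centring 1 fell. The median change was 1.26, or 0.561 among arrays with an instrument file and 0.782 against E7 replicates 3 and 4 alone. TTR, transthyretin, which carries thyroid hormone and retinol-binding protein, had 14.47, 14.50 and 14.56 at E14 against 9.07, 8.62, 9.04 and 8.97 at E7, a rise of 5.58 ± 0.090 (limma adjusted p = 1.31e-16). Its partner RBP4, the plasma retinol carrier, read 10.99, 11.12 and 11.02 at E14 against 5.47, 7.61, 7.72 and 6.29 at E7. The E7 arrays of RBP4 straddled the signal limit of 6.2, under which 40% of probe sets lie, so the size of its rise (4.27 ± 0.39) rests on a dim baseline. STRA6, the receptor that takes retinol from RBP4, had 11.18, 10.97 and 10.86 at E14 and 8.23, 9.14, 8.78 and 8.89 at E7, a rise of 2.24 ± 0.16. SCARB1, the scavenger receptor for lipoproteins and carotenoids, rose by 2.89 ± 0.074, and BCO1, which cleaves carotenoids to retinal, by 1.54 ± 0.064. Both groups were tight for SCARB1, with 13.35, 13.31 and 13.39 at E14 and 10.43, 10.56, 10.37 and 10.50 at E7. ALDH1A2 and ALDH1A3, which make retinoic acid, rose by 1.99 ± 0.19 and 1.45 ± 0.30. CYP1B1, a cytochrome P450 that can oxidize retinol, went the other way, with 10.36, 10.44 and 10.38 at E14 and 12.45, 12.81, 12.18 and 12.21 at E7, and fell by 2.02 ± 0.13.

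**Figure D2:**
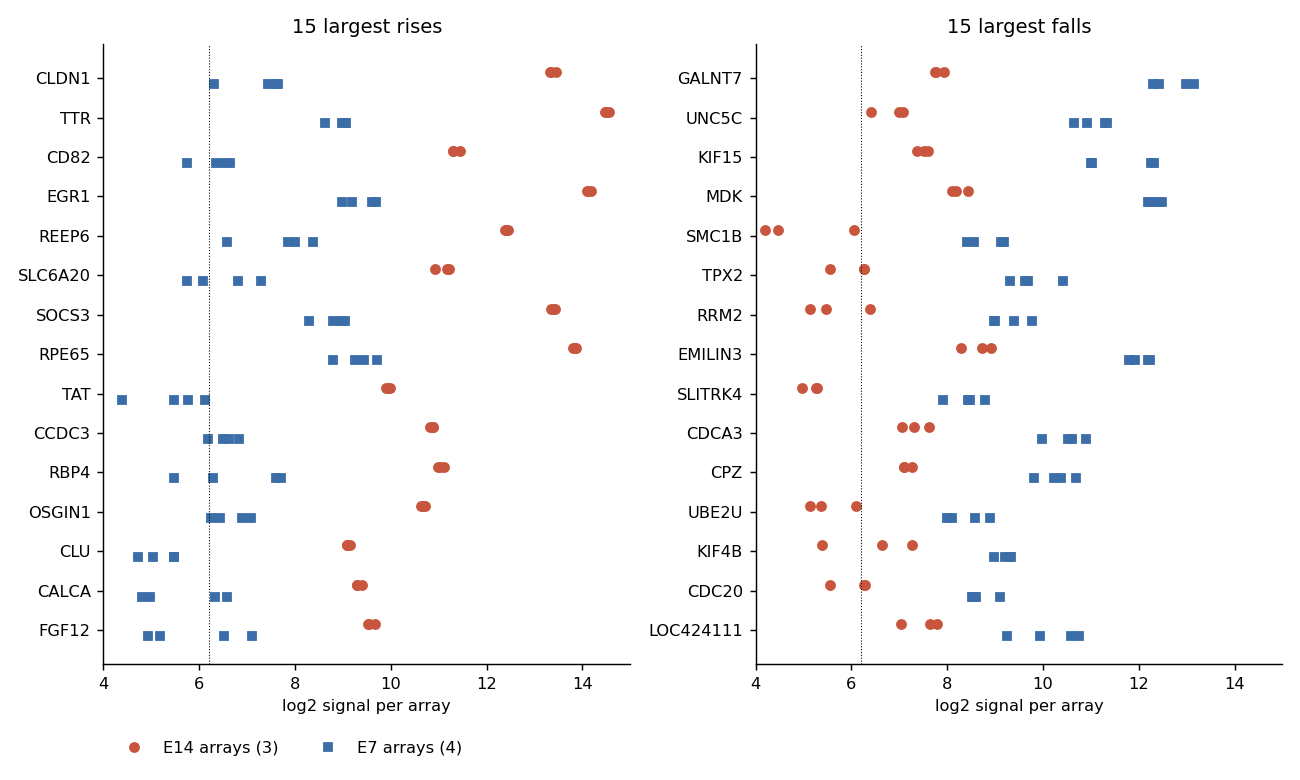
Log2 signals of single arrays are shown for the 15 genes with the largest rises (left) and the 15 with the largest falls (right), E14 arrays as red circles above the E7 arrays as blue squares, with the signal limit of 6.2 as a dotted line. In each of the 30 genes the E14 and E7 arrays do not overlap, which was a condition for showing them.

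Pigment genes, by contrast, were near the top of the array at both ages. DCT, a melanin-synthesis enzyme, had the rank 2 among all probe sets on each E14 array and ranks of 5, 1, 4 and 4 on the E7 arrays. TYR, tyrosinase, the rate-limiting enzyme of melanin synthesis, read 14.95, 14.84 and 14.87 at E14 and 14.77, 14.76, 14.72 and 14.76 at E7, and PMEL, which forms the melanosome fibrils, 15.06, 14.94 and 15.01 at E14 and 14.70, 14.65, 14.82 and 14.76 at E7. DCT, TYR and PMEL were not called (differences 0.06, 0.13 and 0.27, limma adjusted p = 0.628, 0.143 and 0.0663). Quantile normalization sets such values by rank alone, and on the deposited scale DCT ran from 37112 to 44190 at E14 and from 36940 to 42478 at E7. TYRP1 was called at 0.18 ± 0.055 (limma adjusted p = 0.0435), and that call ended in 14 of 19 alternatives, among them the deposited scale (0.13), median centring (0.41) and leaving out any of the 7 arrays (0.15 to 0.19). In the melanin and melanosome list 6 of 28 rose (21.4%) and 2 fell. The clearest were the melanosome trafficking genes DTNBP1 (1.15 ± 0.087) and HPS1 (0.82 ± 0.15). The count of rises dropped to 2 without any E14 replicate or without E7 replicate 1, and to 3 on the deposited scale, and the falls numbered 0 or 1 without any E14 replicate or without E7 replicate 1 or 2.

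Among transcription factors of the eye field and the RPE, 7 of 53 measured rose and 6 fell (13.2% and 11.3%), shares near the 11.2% and 8.93% over all genes. OTX2, which specifies and maintains the RPE, had 14.69, 14.68 and 14.60 at E14 and 14.65, 14.62, 14.47 and 14.53 at E7, overlapping ranges with no call. PAX6, an eye field factor of the early pigmented layer, read 9.47, 8.99 and 9.44 at E14 and 10.43, 10.30, 10.55 and 10.55 at E7 and fell by 1.16 ± 0.13. MYCN, a proto-oncogene of dividing progenitors, fell by 1.45 ± 0.12 with 10.93, 10.84 and 10.90 at E14 against 12.41, 12.38, 12.18 and 12.41 at E7. MITF, the master regulator of pigment cells, had 11.23, 11.10 and 11.19 at E14 against 12.14, 11.84, 11.35 and 11.65 at E7. The spread of MITF among E7 arrays was wide, and its fall of 0.57 ± 0.13 lost the call after median centring (-0.21), without the variance trend and against E7 replicates 3 and 4 alone (-0.33). LHX2, an eye field factor, fell by 0.60 ± 0.16. Its call ended without E14 replicate 1 (-0.61), 2 (-0.61) or 3 (-0.59) and without E7 replicate 1 (-0.56) or 2 (-0.50). The LHX2 call also ended after median centring (-0.27), against E7 replicates 3 and 4 alone (-0.38), without the variance trend and at an adjusted p under 0.01. Among arrays with an instrument file the difference was -0.31. Among the rises, PROX1, a homeobox factor, gained 1.62 ± 0.22 and 2.48 among arrays with an instrument file. SIX3 and RORB gained 1.22 ± 0.20 and 1.29 ± 0.28, and NR2E1 0.60 ± 0.079. The number of falls was 2 after median centring and 3 against E7 replicates 3 and 4 alone.

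Of the 14 measured claudins, which form the strands of tight junctions at the lateral membrane, 4 rose, 0 fell and 10 had no call. CLDN1 had 13.32, 13.34 and 13.44 at E14 and 7.43, 6.31, 7.65 and 7.60 at E7, with a rise of 6.12 ± 0.22 (limma adjusted p = 7.60e-12). CLDN2 read 10.84, 10.91 and 11.05 at E14 and 7.44, 7.57, 8.17 and 6.90 at E7, a rise of 3.41 ± 0.20. CLDN5, also an endothelial claudin, stood at 12.20, 12.19 and 12.15 at E14 and at 10.32, 10.37, 10.59 and 10.64 at E7, a rise of 1.70 ± 0.083. For all 3 genes every E14 array exceeded every E7 array by more than the range within either age. CLDN20 had 7.51, 7.06 and 6.38 at E14, spread over more than the E7 values of 5.59, 5.14, 5.50 and 5.40. All of these E7 values lay under the signal limit of 6.2, so the size of the CLDN20 rise rests on a dim baseline. Its call (1.58 ± 0.40) ended without E14 replicate 1 (1.32) or 2 (1.54), among arrays with an instrument file (1.56) and with a pseudocount of 64 (0.96).

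Other junction genes changed less, and the list as a whole was mixed, with 10 of 40 rising (25%), 8 falling (20%) and a median change of 0.11, or -0.098 on the deposited scale. OCLN, occludin, gained 0.63 ± 0.17. It was not called on the deposited scale (0.42) or after median centring (0.70). The OCLN call also ended without E14 replicate 2 (0.58), E14 replicate 3 (0.59) or E7 replicate 2 (0.59). The tricellular junction gene MARVELD2 gained 1.19 ± 0.26. TJP1, the scaffold ZO-1, had 10.23, 10.08 and 9.95 at E14 within the E7 range of 10.79, 10.86, 10.32 and 9.94 and was not called. The 8 falls included the paracingulin gene CGNL1 (-1.497 ± 0.35), the adhesion molecule JAM3 (-1.02 ± 0.20) and YBX3 (-0.63 ± 0.070, or -0.32 and not called after median centring), a factor that binds ZO-1. After median centring 2 genes of the list fell, and 5 against E7 replicates 3 and 4 alone. The count of rises was 5 without E14 replicate 2, 6 without E14 replicate 3 and 6 against E7 replicates 3 and 4 alone.

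Cadherins and adherens junction genes showed 3 rises and 4 falls among 26 (11.5% and 15.4%, against 11.2% and 8.93% over all genes). CDH2, N-cadherin, read 9.13, 8.99 and 8.97 at E14 and 10.81, 10.62, 9.90 and 9.88 at E7, and fell by 1.27 ± 0.20. The E7 arrays of CDH2 formed the same pairs as on the second principal component. CDH3, P-cadherin, an RPE cadherin, was not called (-0.28 ± 0.14), while CDH20 rose by 1.31 ± 0.32, and by 2.10 among arrays with an instrument file. Falls numbered 2 without E14 replicate 3, 2 against E7 replicates 3 and 4 alone and 1 after median centring.

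Genes of the apical surface and actin cytoskeleton moved in both directions. ESPN, espin, a bundler of microvillar actin, had 12.72, 12.80 and 12.85 at E14 and 10.79, 10.31, 10.46 and 10.09 at E7, a rise of 2.38 ± 0.14. PLS1 and EZR, a fimbrin and ezrin of microvilli, gained 1.26 ± 0.25 and 0.71 ± 0.19. Against them stood PLS3, the fimbrin of motile cells, with 6.70, 6.53 and 6.70 at E14 and 8.66, 8.98, 8.72 and 9.55 at E7 (-2.33 ± 0.39), and MARCKS, an actin-membrane linker, with 12.21, 12.12 and 12.23 at E14 and 13.28, 13.24, 13.13 and 13.36 at E7 (-1.07 ± 0.080). Its relative MARCKSL1 and the filopodial bundler FSCN1 fell by 1.54 ± 0.26 and 1.36 ± 0.32. In total 7 of 32 rose (21.9%), or 4 without E14 replicate 1 or 2, and 5 fell (15.6%).

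Genes of nutrient and metabolite transport rose more often than they fell, with 11 of 47 rising (23.4%) and 5 falling (median change 0.18). SLC6A20, a proline transporter, had 11.22, 11.18 and 10.93 at E14 and 6.80, 5.76, 6.09 and 7.29 at E7, a rise of 4.63 ± 0.26. Its E7 arrays straddled the signal limit of 6.2, so the size of that rise rests on a dim baseline. The citrate transporter SLC13A5 read 10.58, 10.46 and 10.54 at E14 against 8.02, 7.89, 8.03 and 7.86 at E7, and its dicarboxylate relative SLC13A3 read 12.02, 12.09 and 12.21 against 10.13, 9.79, 10.02 and 10.10 at E7. Both gaps, 2.58 ± 0.099 and 2.10 ± 0.088, exceeded the spread of any group at least several-fold. SLC2A1, the glucose transporter GLUT1, was bright throughout and gained 0.37 ± 0.065, a call lost without the variance trend and after median centring (0.60). SLC16A3, a lactate exporter, was 0.44 ± 0.14 lower, but its call ended without E14 replicate 1 (-0.46), 2 (-0.45) or 3 (-0.41), without E7 replicate 2 (-0.48) or 4 (-0.32) and after median centring (-0.22). SLC35F1, an orphan carrier, fell by 1.58 ± 0.088. The list of ion channels and transport, which also holds solute carriers, was even, 6 up and 6 down of 53. Its shares, 11.3% each, were near the 11.2% and 8.93% over all genes. The chloride channel CLCN2, the bicarbonate transporters SLC4A2 and SLC4A7 and the carbonic anhydrase CA14 rose, by 1.80 ± 0.24, 1.11 ± 0.18, 0.96 ± 0.12 and 1.58 ± 0.40. SLC12A2, the sodium-potassium-chloride cotransporter, had 11.93, 11.90 and 11.91 at E14 against 13.58, 13.45, 12.75 and 12.80 at E7 (-1.23 ± 0.16, or -0.80 after median centring). After median centring the falls numbered 2 in the nutrient and metabolite transport list and 3 in the ion channel and transport list.

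Phagocytosis and lysosome genes rose in 18 of 50 cases (36%) and fell in 6, with a median change of 0.22. MERTK, the receptor that triggers uptake of outer segments, had 10.48, 10.26 and 10.05 at E14 and 9.09, 8.99, 9.45 and 9.09 at E7, a rise of 1.11 ± 0.15. The uptake receptor CD36 rose by 1.26 ± 0.20 and the lysosomal membrane protein SCARB2 by 1.09 ± 0.18. Among hydrolases and their partners, CTSD, cathepsin D, which degrades outer segment protein, read 14.87, 14.95 and 14.91 at E14 and 14.33, 14.24, 14.37 and 14.32 at E7 (0.59 ± 0.063), and the cholesterol carrier NPC2 gained 0.86 ± 0.087. GUSB, beta-glucuronidase, went against them, with 11.79, 11.64 and 11.76 at E14 and 12.84, 12.78, 12.68 and 12.78 at E7 (-1.04 ± 0.12, a call lost after median centring). Rises numbered 11 without E14 replicate 1, 11 against E7 replicates 3 and 4 alone, 11 at an adjusted p under 0.01 and 10 without the variance trend, and falls 0 after median centring.

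Many cell division genes were lower at E14. Of 78 measured mitosis genes 39 fell (50%), 2 rose and 37 had no call, with a median change of -1.15. KIF15, a spindle kinesin, had 7.37, 7.52 and 7.60 at E14 and 12.31, 12.26, 11.01 and 11.02 at E7, a difference of -4.16 ± 0.27. The spindle assembly factor TPX2 read 6.27, 5.56 and 6.26 at E14 against 9.64, 10.42, 9.69 and 9.32 at E7, and CDC20, an activator of the anaphase-promoting complex, 5.56, 6.29 and 6.26 against 8.57, 9.10, 8.51 and 8.60 at E7. These E14 values lay around the signal limit, so the changes of -3.74 ± 0.41 and -2.65 ± 0.44 start from clear signal and end near background. CDK1, the mitotic kinase, remained measurable at 8.83, 8.88 and 8.74 against 10.59, 11.45, 11.09 and 11.29 at E7 (-2.29 ± 0.25), as did TOP2A, the DNA-untangling enzyme of dividing cells, at 7.37, 7.19 and 7.28 against 9.13, 9.62, 9.13 and 9.36 at E7 (-2.04 ± 0.21). The kinase gene PLK1 (-2.55 ± 0.28) and the proliferation marker MKI67 (-2.54 ± 0.45) fell too. Mitosis genes also fell under the other scalings, 44 on the deposited scale and 33 after median centring, with medians of -1.31 and -1.03, and 26 fell among arrays with an instrument file.

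The 2 mitosis genes that rose were HMMR and DEPDC1. HMMR, which encodes a hyaluronan receptor that also binds the spindle, had 11.46, 11.56 and 11.46 at E14 and 8.85, 8.42, 8.45 and 8.47 at E7, a rise of 2.94 ± 0.13. A second, dimmer HMMR probe set did not follow it, at 6.77 at E14 and 6.82 at E7 (limma adjusted p = 0.964). Both DEPDC1 probe sets rose, by 1.45 ± 0.20 and 1.29 ± 0.28. In DNA replication and nucleotide supply 13 of 59 fell (22%) and 2 rose (median -0.24), or 1 without any E14 replicate or without E7 replicate 1, 2 or 4. RRM2, a ribonucleotide reductase subunit, had 5.48, 6.38 and 5.13 at E14 against 9.01, 9.77, 9.39 and 8.98 at E7 (-3.62 ± 0.38). TYMS, thymidylate synthase, fell by 1.93 ± 0.22, POLD3, a polymerase subunit, by 1.22 ± 0.16, and MCM2, a helicase subunit, by 1.14 ± 0.21. The helicase subunit MCM6 had probe sets called in opposite directions, 1.62 ± 0.23 in the brightest and -0.87 ± 0.19 in another, and its direction is uncertain.

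Matrix genes moved in both directions. FN1, fibronectin, had 11.94, 11.96 and 11.98 at E14 and 13.61, 13.35, 13.49 and 13.53 at E7, a fall of 1.53 ± 0.082. FBLN1, fibulin-1, a fibronectin and basement membrane ligand, read 11.78, 11.77 and 11.67 at E14 and 13.75, 13.77, 13.83 and 13.81 at E7 (-2.05 ± 0.064). EMILIN3, an elastin-microfibril glycoprotein, fell furthest, with 8.30, 8.92 and 8.73 at E14 against 12.23, 11.92, 12.20 and 11.79 at E7 (-3.39 ± 0.27). Within each of these genes the arrays of an age agreed closely compared with the gap, which the choice of the genes favoured. COL12A1 (-2.40 ± 0.25), elastin ELN (-1.84 ± 0.22) and COL2A1 (-1.56 ± 0.24) fell as well. More fibrillar and elastic matrix genes rose than fell, 14 against 7 of 58 (24.1% and 12.1%). The gains included HAPLN1, a hyaluronan link protein, with 9.59, 9.62 and 9.65 at E14 and 7.07, 6.60, 6.81 and 6.19 at E7 (2.95 ± 0.23), MATN2 (2.59 ± 0.24), POSTN (2.52 ± 0.49) and COL6A1 (2.40 ± 0.27).

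Basement membrane genes and integrins were even, 7 up and 7 down of 44 (15.9% each), and the members of the collagen IV family differed. COL4A4 had 11.59, 11.62 and 11.49 at E14 and 10.10, 9.65, 9.85 and 9.15 at E7, a rise of 1.88 ± 0.15, and COL4A3 rose by 0.88 ± 0.20. COL4A6, COL4A5 and COL4A2 fell by 1.23 ± 0.15, 0.57 ± 0.11 and 0.48 ± 0.13. Of the laminins, LAMB1 read 11.05, 11.30 and 11.19 at E14 against 13.00, 13.29, 13.03 and 12.79 at E7 (-1.85 ± 0.14) and LAMA1 fell by 0.54 ± 0.088, whereas the laminin-binding NID1, nidogen, gained 1.07 ± 0.068. TIMP3, a metalloproteinase inhibitor laid down in Bruch's membrane, gained 1.11 ± 0.094. After median centring 3 of the 44 fell.

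Secreted growth factors and their modulators rose in 18 of 68 cases (26.5%) and fell in 7. MDK, midkine, a heparin-binding growth factor of embryonic epithelia, had 8.43, 8.19 and 8.10 at E14 and 12.43, 12.49, 12.27 and 12.20 at E7, a fall of 4.10 ± 0.22 (17.2-fold). Its relative PTN, pleiotrophin, fell by 1.09 ± 0.22 (0.77 lower and not called against E7 replicates 3 and 4 alone), and the matricellular CCN3 by 1.86 ± 0.17. The gains were led by EGF (2.21 ± 0.32), INHBB, an activin subunit (2.20 ± 0.34), and IGFBP2, an insulin-like growth factor carrier, which read 12.84, 12.89 and 12.88 at E14 and 10.78, 10.74, 11.04 and 11.11 at E7 (1.96 ± 0.11). VEGFA, which maintains the choriocapillaris, gained 0.39 ± 0.11, while VEGFC lost 0.71 ± 0.080, a call that ended after median centring. SERPINF1, the anti-angiogenic factor PEDF, gained 0.41 ± 0.083.

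Among Wnt genes 6 of 52 rose (11.5%) and 7 fell (13.5%), near the shares over all genes. WIF1, a secreted inhibitor that binds Wnt ligands, had 8.31, 8.07 and 8.09 at E14 and 5.46, 5.73, 5.26 and 5.45 at E7, a rise of 2.68 ± 0.26 out of signals under the limit. The ligand gene WNT9A gained 1.24 ± 0.13, and the receptor gene FZD6 lost 0.84 ± 0.12 (-0.53 and not called after median centring). Wnt falls numbered 3 without E14 replicate 1 or 3, 4 without E14 replicate 2 and 2 after median centring, and rises 3 without E14 replicate 1. Axon guidance genes included the second largest fall, UNC5C, a netrin receptor, with 6.99, 7.08 and 6.41 at E14 and 11.33, 11.31, 10.91 and 10.65 at E7 (-4.23 ± 0.32, 18.7-fold). The ligand EFNB1 and its receptors EPHB6, EPHB2, EPHB1 and EPHB3 each fell, by 1.48 ± 0.14, 1.14 ± 0.16, 0.73 ± 0.18, 0.70 ± 0.22 and 0.64 ± 0.18. SEMA3C rose, by 1.02 without E7 replicate 4 and by 0.81 among arrays with an instrument file. Changes in the axon guidance list ran from -4.23 to 2.34, with a median of -0.053. In that list 9 of 51 fell (17.6%) and 7 rose (13.7%), or 5 fell after median centring or against E7 replicates 3 and 4 alone, and 4 rose on the deposited scale.

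Of 53 genes of sterol and fatty acid metabolism 19 rose (35.8%) and 6 fell. SQLE, squalene epoxidase, a rate-limiting enzyme of cholesterol synthesis, had 11.21, 11.36 and 11.38 at E14 and 9.11, 9.19, 9.29 and 9.18 at E7 (2.13 ± 0.17). INSIG1, a sterol sensor partner, read 10.05, 10.13 and 10.23 at E14 and 8.01, 8.15, 7.94 and 7.999 at E7 (2.11 ± 0.17). NSDHL, DHCR7, FDFT1, MSMO1 and HMGCS1, further enzymes of that pathway, rose by 1.88 ± 0.20, 1.58 ± 0.21, 1.54 ± 0.15, 1.499 ± 0.073 and 1.44 ± 0.16. ELOVL2, which elongates the polyunsaturated fatty acids of retinal membranes, gained 1.72 ± 0.17. ABCA1, a cholesterol exporter, was lower by 1.93 ± 0.32. The same number of genes, 19, rose on the deposited scale, after median centring and among arrays with an instrument file, while the falls numbered 3 after median centring and 2 against E7 replicates 3 and 4 alone.

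Antioxidant genes rose in 18 of 54 cases (33.3%) and fell in 4. SOD3, the extracellular superoxide dismutase, had 9.32, 9.27 and 9.30 at E14 and 5.02, 5.11, 6.04 and 6.52 at E7 (3.63 ± 0.28). Its E7 mean of 5.67 lay under the signal limit. HMOX1, heme oxygenase, read 10.99, 11.01 and 10.97 at E14 and 8.38, 8.53, 8.37 and 7.68 at E7 (2.75 ± 0.26), and SQSTM1, the autophagy adaptor p62, gained 2.33 ± 0.15. OSGIN1, another oxidative stress gene though not in that list, gained 4.01 ± 0.31. Rises in the antioxidant list numbered 10 without the variance trend and 11 at an adjusted p under 0.01, and falls 0 after median centring.

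The list of glycolysis, lactate and pyruvate genes showed 6 rises and 3 falls of 30. Among them were PDK1 and PDK3, kinases that inhibit pyruvate dehydrogenase (0.71 ± 0.085 and 0.51 ± 0.069), and ENO1, enolase (-0.54 ± 0.068, lost after median centring). Respiratory chain genes rose in 16 of 70 cases (22.9%) and fell in 5, all by less than 1 log2 unit. The count of rises was 10 without E14 replicate 2 or 3 or E7 replicate 2, 9 among arrays with an instrument file and 9 against E7 replicates 3 and 4 alone. The falls numbered 2 without E14 replicate 1, 3 without E14 replicate 2, 2 on the deposited scale and 0 after median centring. Cytosolic ribosomal protein genes fell in 33 of 63 cases (52.4%) with no rise, by a median of 0.21 on the log2 scale, for example RPS3 at 13.92, 13.87 and 13.97 at E14 and 14.43, 14.47, 14.45 and 14.34 at E7. The number of falls depended on the settings. After median centring 0 fell and the median was 0.016, against 0.115 over all probe sets. On the deposited scale 19 fell, with a median of -0.258, and without the variance trend 10 fell.

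DIO2, the deiodinase that activates thyroid hormone, had 10.42, 10.31 and 10.38 at E14 and 8.48, 8.33, 7.93 and 8.11 at E7 (2.16 ± 0.15). In its list of endocrine and nuclear receptor genes 4 of 33 rose (12.1%, against 11.2% over all genes) and 1 fell. The fall was that of the retinoic acid receptor gene RARB (-0.73 ± 0.12, not called after median centring). The falls numbered 2 without E14 replicate 2 or E7 replicate 3.

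**Figure D3:**
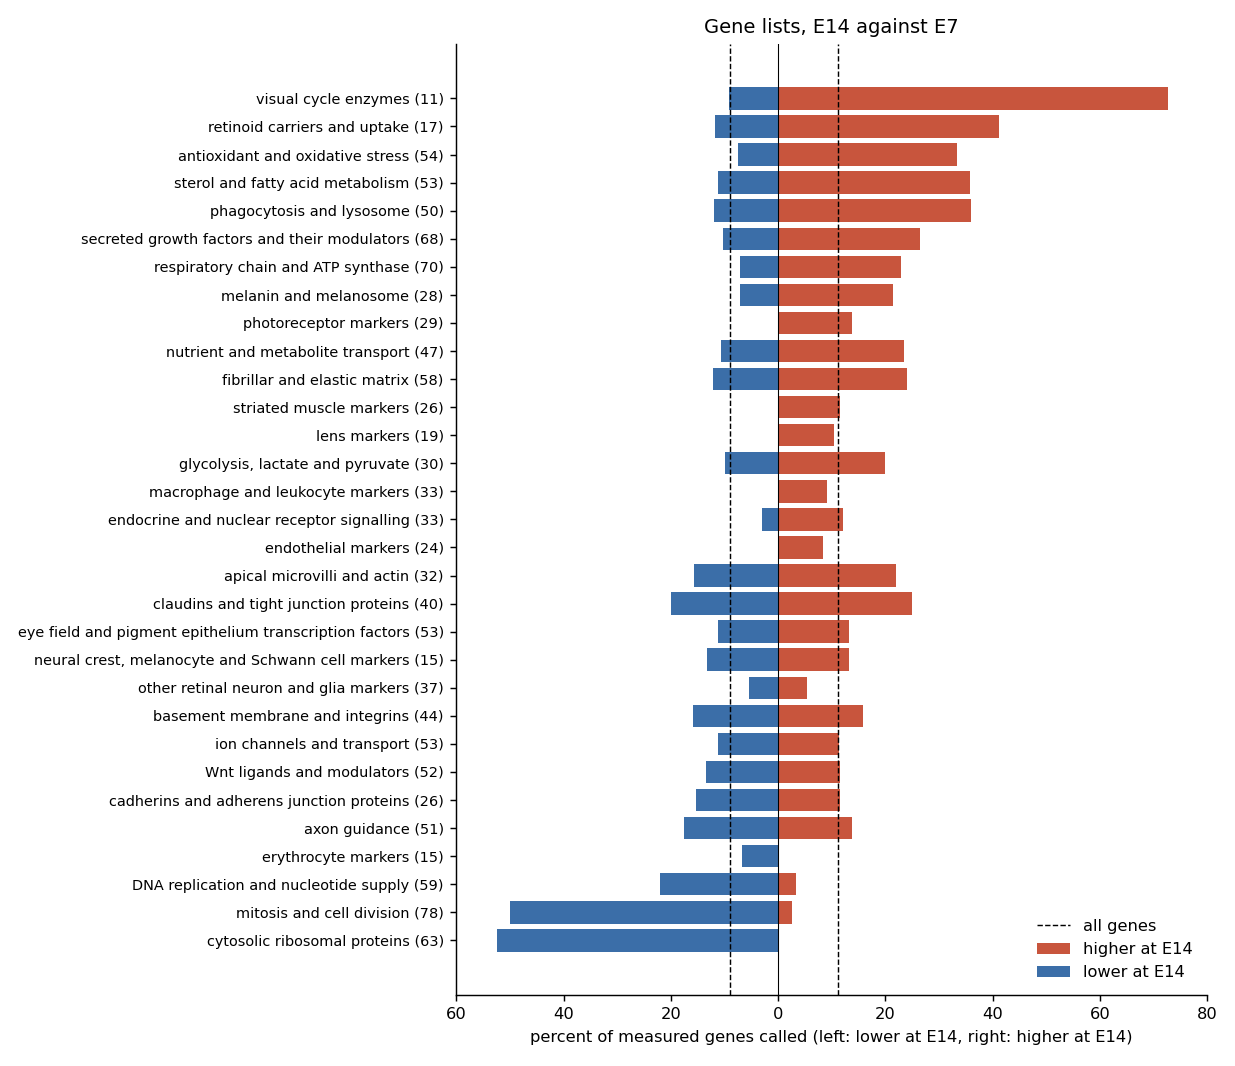
Bars give the percent of measured genes (number in parentheses) of each list that rose at E14 (red, to the right) or fell (blue, to the left), with dashed lines at the shares over all genes, 11.2% and 8.93%. Visual cycle genes reach 72.7% to the right, and mitosis genes 50% and ribosomal protein genes 52.4% to the left. These shares moved with the settings given in the text, those of the visual cycle and ribosomal protein genes most.

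Several of the largest changes lay outside these lists. CD82, a tetraspanin of the plasma membrane, had 11.44, 11.31 and 11.29 at E14 and 6.64, 6.35, 6.52 and 5.75 at E7 (5.03 ± 0.17, 32.7-fold). EGR1, an immediate-early transcription factor, read 14.12, 14.10 and 14.18 at E14 and 8.97, 9.20, 9.70 and 9.61 at E7 (4.76 ± 0.16), and a second EGR1 probe set gave 4.79 ± 0.16. SOCS3, a feedback inhibitor of cytokine receptors, stood at 13.43, 13.39 and 13.35 at E14 against 8.80, 8.96, 9.04 and 8.29 at E7 (4.62 ± 0.13). All 3 E14 arrays of these genes lay within 0.2 log2 units of each other. REEP6, an endoplasmic reticulum protein, gained 4.71 ± 0.27, CCDC3 4.33 ± 0.31, CALCA, the calcitonin gene, 3.65 ± 0.37, and FGF12, an intracellular FGF homolog, 3.64 ± 0.39. The E7 means of CALCA and FGF12 (5.67 and 5.93) lay under the signal limit, and that of CD82 (6.32) was close to it. The sizes of the rises of CALCA, FGF12 and CD82 thus rest on dim baselines. Falls of this kind were those of GALNT7, with 7.76, 7.94 and 7.75 at E14 and 12.29, 12.42, 12.98 and 13.16 at E7, the carboxypeptidase CPZ (-3.12 ± 0.26), the kinesin KIF4B (-2.78 ± 0.37) and LOC424111 (-2.65 ± 0.33, or -1.76 among arrays with an instrument file).

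Some genes crossed the signal limit altogether. In 18 genes every E7 array was under it and every E14 array at least 1 log2 unit above it, and in 8 genes the reverse held. The brightest gained in this way was TAT, tyrosine aminotransferase, with 9.90, 9.95 and 9.99 at E14 and 4.39, 5.76, 5.47 and 6.11 at E7. CLU, the secreted chaperone clusterin, followed with 9.15, 9.09 and 9.08 at E14 against 5.47, 5.03, 5.48 and 4.72 at E7. FAM135B, RAMP2, a calcitonin-family receptor partner, and PRKCH, a protein kinase C, came next, with E14 means of 8.61, 8.37 and 8.36. Since the E7 side is near background, the fitted changes of these 5 genes, 2.81 for PRKCH to 4.51 for TAT, depend on the pseudocount, and that of RAMP2 was 3.29 with 16 and 2.19 with 64. Lost in the same sense were SMC1B, a cohesin subunit of meiosis, with 4.46, 4.20 and 6.05 at E14 and 9.12, 9.18, 8.42 and 8.56 at E7, SLITRK4, a neuronal membrane protein, with 4.97, 5.29 and 5.25 against 8.48, 8.43, 8.78 and 7.92 at E7, UBE2U, CKS2, a partner of mitotic kinases (not called among arrays with an instrument file, -1.79), and PRSS35. FABP7, a fatty acid carrier of progenitors and glia, was the sixth, and its call ended without E14 replicate 2 (-2.07) or E7 replicate 2 (-1.99) and among arrays with an instrument file (-1.85).

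The values at E10 and E18 place these changes in time. Over all probe sets 6.55% were called for E10 against E7, 2.91% for E14 against E10 and 10.7% for E18 against E14, and these comparisons share arrays with that of E14 and E7. Of the cell division genes, TPX2 averaged 9.77, 5.16, 6.03 and 6.63 at E7, E10, E14 and E18, and CDK1 11.10, 8.99, 8.82 and 8.24. For neither was E14 called against E10 (limma adjusted p = 0.427 and 0.871). CLDN5, with 10.48, 12.19, 12.18 and 11.82, was also called for E10 against E7 and not for E14 against E10. Other genes were called for E14 against E10. STRA6 averaged 8.76, 7.80, 11.003 and 14.26 at the successive ages, DIO2 8.21, 8.24, 10.37 and 13.28, and SCARB1 10.47, 10.76, 13.35 and 15.03. All 3 were called again for E18 against E14. DIO2 had no call for E10 against E7, STRA6 was lower at E10 and SCARB1 higher. CLU, at 5.17, 5.25, 9.11 and 10.10, and FN1, at 13.49, 13.34, 11.96 and 10.41, had no call for E10 against E7. GALNT7 averaged 12.71, 11.38, 7.82 and 7.03, most of its fall lying between E10 and E14.

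A further set was higher at E14 than at E18. TAT averaged 5.43, 9.63, 9.95 and 7.41 at the 4 ages, CCDC3 6.53, 8.83, 10.86 and 8.73, RBP4 6.77, 8.93, 11.04 and 8.66, and OSGIN1 6.67, 7.69, 10.67 and 8.73. The differences of E18 minus E14, between -2.54 and -1.95, were called in each (limma adjusted p = 0.000161 to 0.0119). Against E10, E14 was not called for TAT (0.32, limma adjusted p = 0.916). The E18 arrays were split, however: TAT read 8.81 and 8.80 in E18 replicates 1 and 4, which have an instrument file, and 5.49 and 6.54 in replicates 2 and 3, which have none. CCDC3 read 9.59 and 9.30 in the first pair and 8.03 and 7.99 in the second, and OSGIN1 9.39 and 9.33 in the first and 8.16 and 8.01 in the second. All 4 E18 arrays lay below all 3 E14 arrays in each of the genes, and the part of a possible batch in the size of the difference was not tested. RPE65 continued upwards, with 9.30, 11.58, 13.84 and 15.02, while CLDN1, at 7.25, 11.83, 13.37 and 12.82, and CLDN2, at 7.52, 9.69, 10.93 and 11.39, had no call after E14. KIF4B, low at E14 (6.43), was back at 9.35 at E18 against 9.21 at E7.

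**Figure D4:**
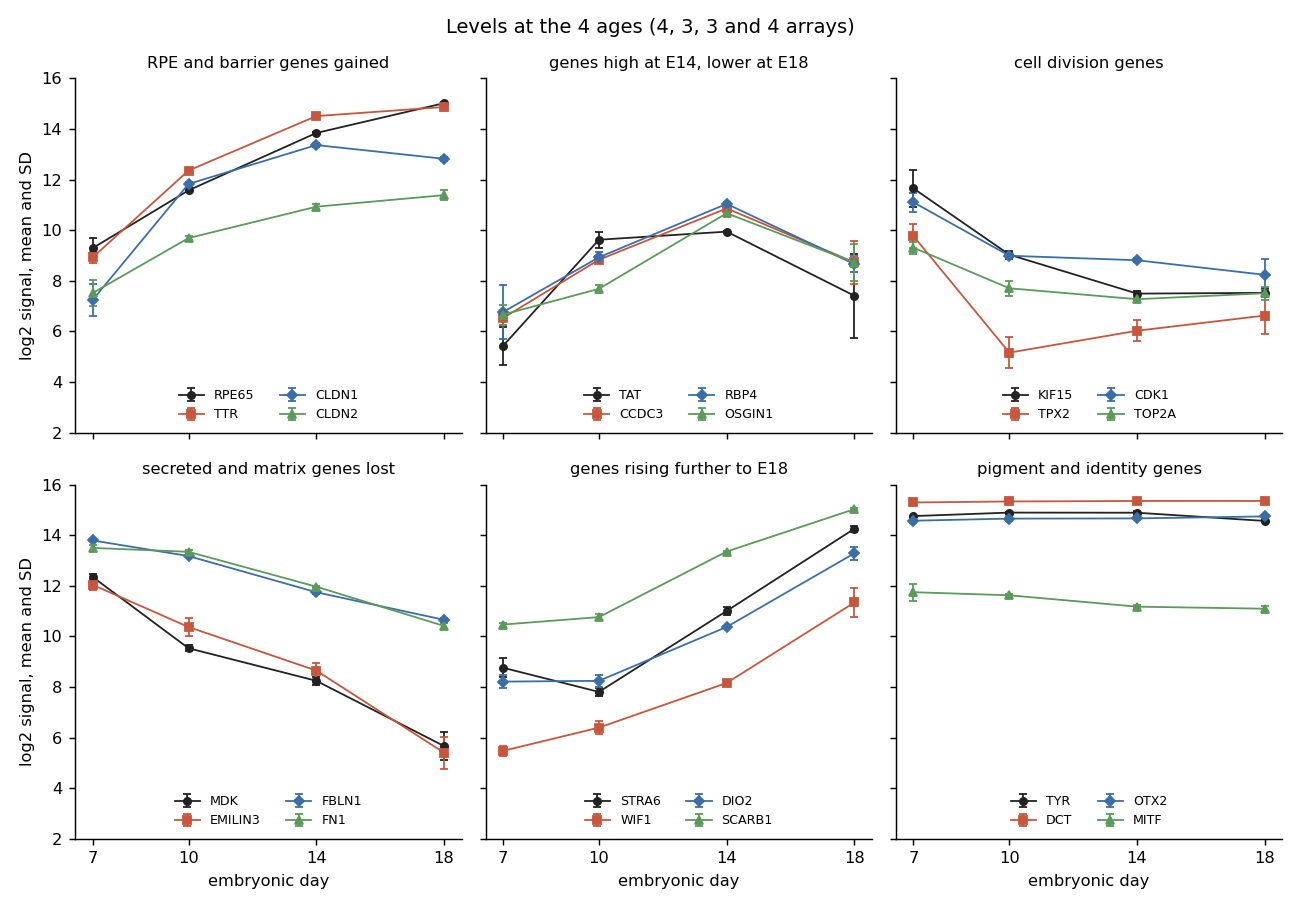
Mean log2 signals with the SD of the arrays are drawn over embryonic day for 24 genes in 6 panels, with 4, 3, 3 and 4 arrays at E7, E10, E14 and E18. RPE65 and TTR climb towards 15, and CCDC3, RBP4 and OSGIN1 peak at E14. TAT is high at E10 and E14, TPX2 is low from E10, and TYR, DCT and OTX2 stay above 14 throughout.

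Markers of other cells were checked because the sheets may carry neighbouring tissue, and on pooled tissue fewer cells of a type and less RNA per cell cannot be told apart. Globin genes went in different directions, and none was called. HBA1, an alpha globin, had 13.14, 13.13 and 13.06 at E14 and 11.95, 12.01, 8.90 and 7.59 at E7, where the arrays split as on the second principal component. The difference was 2.99 ± 1.2 (limma adjusted p = 0.129). HBZ, an embryonic globin, had 6.77, 6.30 and 6.88 at E14 and 9.47, 8.70, 7.68 and 6.85 at E7, a difference of -1.53 ± 0.57 (limma adjusted p = 0.1). HBBR read 5.22, 7.59 and 7.51 at E14 and 9.63, 9.76, 6.87 and 8.2 at E7, with overlapping groups. Of 15 erythrocyte genes 0 rose and 1 fell, with a summed signal of 16150 to 16830 at E14 and 7134 to 12460 at E7, and among arrays with an instrument file 3 rose. The count of falls in this list was 0 without any E14 replicate or without E7 replicate 3. The part of blood in the results was not tested.

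Macrophage and leukocyte markers showed 3 rises and no fall among 33. The share of rises, 9.09%, was under the 11.2% over all genes. Summed signals were 11230 to 12080 at E14 and 6701 to 8643 at E7. CSF1R, the macrophage growth factor receptor, was bright at 12.85, 12.95 and 12.75 at E14 and 11.69, 11.81, 12.09 and 11.93 at E7 (0.97 ± 0.11). The rise of CSF1R alone makes up most of the summed difference. IRF8, a myeloid transcription factor, gained 1.29 ± 0.27, and LAPTM5, a leukocyte lysosomal protein, 1.49 ± 0.38. LAPTM5 was not called without E14 replicate 2 (1.45) or 3 (1.48). PTPRC, the pan-leukocyte marker CD45, was under the signal limit on all 7 arrays, at 4.51, 5.04 and 5.75 at E14 and 5.73, 5.50, 4.21 and 5.67 at E7. The lysosomal genes above also belong to such cells, and the part of macrophages in their rise was not tested.

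Endothelial markers showed 2 rises among 24 (8.33%, against 11.2% over all genes), CLDN5 and ERG. Summed signals were 7326 to 7672 at E14 and 3402 to 4087 at E7, and CLDN5, described above among the claudins, makes up most of that difference. PECAM1, an endothelial adhesion molecule, had 8.24, 8.15 and 8.17 at E14 and 8.67, 8.47, 8.26 and 8.24 at E7 and was not called. ERG, an endothelial transcription factor, gained 1.01 ± 0.24 but was not called without E14 replicate 3 (0.91). CDH5, the endothelial cadherin, was under the limit on every array, at 4.61, 5.50 and 4.28 at E14 and 4.34, 4.28, 5.74 and 5.52 at E7. Photoreceptor markers showed 4 rises among 29 (13.8%, against 11.2% over all genes), and 25 had no call. Changes in that list ran from -0.98 to 2.07, with summed signals of 9624 to 10090 at E14 and 9792 to 12270 at E7. GNAT2, cone transducin, read 7.49, 7.66 and 7.68 at E14 and 5.65, 6.01, 4.25 and 6.51 at E7 (2.01 ± 0.45, or 1.10 and not called among arrays with an instrument file). RXRG, a cone nuclear receptor, gained 2.07 ± 0.46. The other 2, PDE6G and CNGB3, lost their calls without E14 replicate 1 (1.14 and 1.77), 2 (1.10 and 1.47) or 3 (1.02 and 1.42), and CNGB3 also without E7 replicate 1 (1.31) or 2 (1.25) and on the deposited scale (1.33). The E7 means of GNAT2, RXRG and CNGB3 (5.60, 5.98 and 5.73) lay under the signal limit, so the sizes of their rises rest on dim baselines. Falls in the photoreceptor list numbered 1 without E7 replicate 1 and 2 without E7 replicate 4, and rises 2 without E14 replicate 1 or 3.

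Markers of other retinal neurons and glia showed 2 rises and 2 falls among 37 (5.41% each, against 11.2% and 8.93% over all genes). Their summed signals were 41790 to 46530 at E14 and 43500 to 46750 at E7. None rose without any E14 replicate or without E7 replicate 1, 1 rose without E7 replicate 2 or 4, and 1 fell without any E14 replicate or without E7 replicate 1, 2 or 3. ELAVL4, a neuronal RNA-binding protein, fell by 1.88 ± 0.20, with 8.50, 8.87 and 8.50 at E14 and 10.99, 10.71, 10.02 and 10.32 at E7. STMN2, of the same list, rose by 1.40 ± 0.38, with 8.63, 8.73 and 8.65 at E14 and 6.93, 7.78, 7.28 and 7.11 at E7. The STMN2 call ended when any E14 replicate was left out (1.36 to 1.41) and without E7 replicate 1 (1.28). Striated muscle markers rose in 3 of 26 cases (11.5%) and lens markers in 2 of 19 (10.5%), near the 11.2% over all genes. None of either list fell, against 8.93% over all genes. In the neural crest and melanocyte list, SOX10, a neural crest factor, was bright, with 11.67, 11.61 and 11.69 at E14 and 12.60, 12.58, 12.46 and 12.42 at E7 (-0.85 ± 0.091, not called after median centring), and EDNRB, the endothelin receptor of that lineage, rose by 1.69 ± 0.19. The list had 2 rises and 2 falls among 15, or 1 rise without any E14 replicate or without E7 replicate 1, 2 or 4. The part of these cells in the results was not tested.

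**Figure D5:**
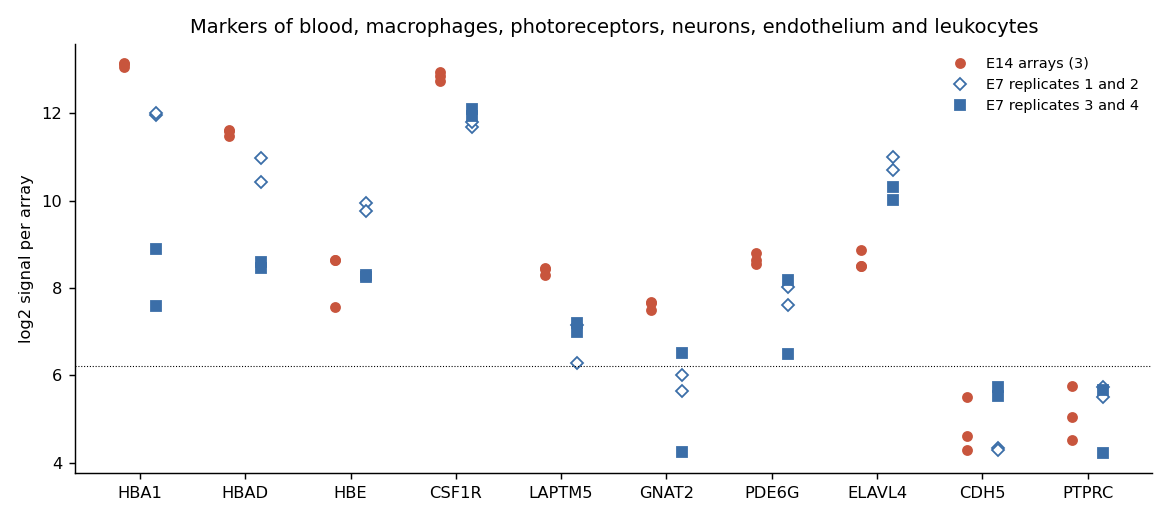
Log2 signals of single arrays are shown for 10 markers of other cells, E14 arrays as red circles left of the E7 arrays, with open diamonds for E7 replicates 1 and 2, filled squares for replicates 3 and 4, and the signal limit of 6.2 as a dotted line. HBA1 is above 13 on each E14 array and splits into pairs at E7, while CDH5 and PTPRC lie under the limit on all 7 arrays. STMN2, which rose while ELAVL4 fell, is not drawn. The photoreceptor markers drawn, GNAT2 and PDE6G, are among those that rose, and most of that list had no call.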

How the data were processed

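RNA of chicken RPE at 4 ages was measured on 14 arrays, of which 3 were E14 and 4 were E7. The values are the linear intensities the authors deposited in the series' value table. Each array's mean, trimmed by 2% at each end, is close to 500, and the summarising software is not given in the sources used here. Instrument files came with 9 arrays and hold no RNA values, so they served only to mark a set of arrays as a possible batch. No label states that this set is a batch. The 96 control probe sets were left out of 38535. The rest were put on log2(intensity + 16), quantile normalized and tested with limma 3.58.1 in R 4.3.3 (age means, empirical Bayes with a variance trend, Benjamini-Hochberg adjustment). Figures were drawn with matplotlib 3.10.9.

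Symbols came from the platform's annotation, updated through gene identifiers. Of the tested probe sets 27168 had 1 symbol, 177 several and 11094 none. A gene was represented by its brightest probe set over all arrays. The signal limit is the 40th percentile of mean signal, 6.2 in log2 (57.53 linear). Arrays give no read depth, and their number limits the precision. The named genes are the 15 largest rises and falls with separate groups, up to 4 called members with the smallest adjusted p and the largest change of each list, a fixed set of RPE genes, and the 6 brightest genes that crossed the limit each way. Genes outside that rule were named as further list members. Choice by change or adjusted p favours genes whose arrays agree closely within an age. Remarks on such agreement are thus no independent support. The members and the 31 gene lists (1268 of 1498 entries measured) were chosen with earlier results of these data known. On simulated data the fit found 55 of 67 probe sets changed 4-fold, 25 of 67 changed 2-fold and 14 of 66 changed 1.5-fold, with 6 unchanged probe sets called. The changed ones were drawn only from above the signal limit, with normally distributed noise. Far fewer probe sets changed there than were called in the data, so these rates do not give the sensitivity of the comparison. Of 19 alternatives, that with E7 replicates 3 and 4 as the only E7 arrays was chosen after seeing the data.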

Additional observations from a re-analysis of the deposited data

Results flagged for a closer look

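Among the 168 named genes, 13 had an E7 array whose log2 signal lay apart from the other E7 arrays, the gap to the nearest, as a share of the group's whole range, being above Dixon's 95% critical value. Chance flags about 1 in 20 groups of this size, and groups of 3 such as E14 were not examined. In E7 replicate 1 these were RAMP2 (6.012), HMMR (8.852) and NR2E1 (12.21), all higher than in the other E7 arrays. In E7 replicate 2 they were CLDN1 (6.309) and NPC2 (12.38), both lower, and DCT (15.42) and CDC20 (9.096), both higher. E7 replicate 3 stood apart for GAA (5.561) and CLOCK (8.591), which were higher, and for MYCN (12.17), which was lower. In E7 replicate 4 PROX1 (6.898) and RPL10A (14.33) were lower and SLC16A3 (10.31) was higher. RAMP2 and GAA were under the signal limit in those arrays.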

How the results depend on the processing

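All 158 called named genes kept their direction under each of the 19 alternatives, and 111 kept their call in every alternative that tested them. The alternatives reuse the arrays by which these genes were chosen, so kept directions and calls are no independent support. Against 4825 probe sets called, 2558 higher and 2267 lower, an adjusted p under 0.01 left 2948, 1628 higher and 1320 lower. Median centring left 691 lower, and E7 replicates 3 and 4 alone left 1454 lower. Leaving out 1 array gave 3385 to 4847 calls, 1800 to 2595 higher and 1524 to 2325 lower. Named genes lost their call most often after median centring (31 of 158), and 0 did with array weights. Same-numbered E14 and E7 arrays did not deviate together (correlations 0.0124 to 0.0149 over 3 pairs). So few pairs cannot settle whether the numbers pair the arrays, and the main fit did not pair them. The replicate block gave 4663 calls. Where a call or count ended or moved, the cause was not tested. Genes near the signal limit have folds that depend on the pseudocount, and those at the top of the array are set by rank.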
